A study of Homo sapiens with 3 samples.

Results

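The stretch of human 28S ribosomal RNA from A2401 to nucleotide 2880 covers about domain III of the large subunit and ends ahead of expansion segment 27. Its members were taken by number and base, as every adenosine and cytidine of the deposited table in that range, and no measured value entered the choice. There are 217 of them, 91 A and 126 C, among 2492 A and C in the table. The stretch is 480 nt long. The whole RNA has 5070 nt, which is also the length of RNA28SN5 in RefSeq (GRCh38.p14), a gene placed on a sequence without an assigned chromosome, from 113348 to 118417. Other copies lie on chromosomes 21 and 22, so a position stands for the pool of copies. Positions were not mapped to chromosome coordinates and no annotation of helices was used, so the name domain III rests on the numbering.

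Dimethyl sulfate adds a methyl group to the base-pairing face of A and C where that face is free, and the modified base is misread during reverse transcription. A high mutation signal therefore marks an A or C that is not engaged in a pair or buried under protein. Domain III forms part of the solvent side of the large subunit near the exit of the peptide tunnel, where the ribosomal protein uL23 binds it. Cycloheximide, an inhibitor of translation elongation, binds in the E site in domain V, which is a different part of the rRNA. RiboBright is called a probe in the treatment protocol, which does not describe its structure.

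The data are 3 libraries of HEK293 cells, a line from human embryonic kidney, for which the growth protocol names the derivative HEK293T/17. One culture condition received 10 µM cycloheximide, another 10 µM RiboBright and the control an equal volume of DMSO, each for 30 min. With 1 library for each treatment there is no replicate, so no test, error or p-value is given and every difference is a difference between libraries. The files hold no read counts, so the depth behind a value is unknown.

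The stretch was listed in full. All 217 members had a value in every library, whereas 28.7% of the A and C in the rest of 28S rRNA lacked a value in at least 1 library. That share was 13.4% in the stretch before it (1851 to 2400) and 71.2% in the stretch after it (2881 to 3600). The nearest A or C without a value lay 63 nt away from any member. There were 0 exact zeros in DMSO, 0 in cycloheximide and 4 in RiboBright, at C2533, C2670, C2671 and C2719, where DMSO had 0.014 to 0.030, singled out after the values were seen. G and C made up 63.5% of the nucleotides here, 68.4% in the stretch before it and 86.7% in the stretch after it.

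Sequences are written as the table gives them, 5′ to 3′ with T for uridine. Capitals mark A or C whose DMSO signal reached 0.240, the 75th percentile over 28S rRNA, which serves as the level floor below. The first pair are the windows of 40 nt with the highest median DMSO signal, and the next pair those with the lowest.
2481 to 2520: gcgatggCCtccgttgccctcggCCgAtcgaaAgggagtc
2561 to 2600: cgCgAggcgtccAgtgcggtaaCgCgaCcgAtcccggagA
2681 to 2720: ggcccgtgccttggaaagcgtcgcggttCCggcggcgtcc
2721 to 2760: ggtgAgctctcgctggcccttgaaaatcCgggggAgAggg

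The surroundings of the most reactive members, and of the 1 member that passed the rule for change described further on, follow with the named nucleotide at the centre of 25 nt.
A2676: gttcgCcccgAgAgaggggcccgtg
A2647: tttgtgAagggcAgggcgccctgga
A2453: cggtcctgagagAtgggcgagcgcc
A2725: cggcgtccggtgAgctctcgctggc

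In DMSO most members had low signals and a few had strong ones. Adenosines ranged from 0.043 to 4.806 with a median of 0.164, and cytidines from 0.004 to 1.267 with a median of 0.083. In the rest of 28S rRNA these medians were 0.130 and 0.0745. The level floor was reached by 30 of 91 adenosines (33.0%, against 27.7% in the rest) and by 23 of 126 cytidines (18.3%, against 23.7%). Of the 53 members at or above the floor, 14 had another such member as a direct neighbour. A signal of at least 1 was found at 11 members.

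A2676 was by far the most reactive member. Its signal was 4.806 with DMSO, 4.781 with cycloheximide and 4.654 with RiboBright, 36.1 times the median adenosine of 28S rRNA in DMSO. It ranked 10 in DMSO, 10 in cycloheximide and 9 in RiboBright among all A and C with a value. In the sequence above it sits between a run of cytidines and a run of guanosines that can pair with each other. The nearest adenosines were far lower. A2674 had 0.279, 0.280 and 0.428, and A2678 had 0.137, 0.128 and 0.136, in the order DMSO, cycloheximide, RiboBright. In the run of cytidines, the first, C2669, had 1.250 in DMSO, and C2670 to C2672 after it had 0.014, 0.015 and 0.042. Apart from C2669, these neighbours were picked out after their values were seen.

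A2647, the next most reactive, had 2.137 with DMSO, 2.433 with cycloheximide and 2.238 with RiboBright. A2453 had 1.827, 1.763 and 1.766, with weakly reactive A2449 (0.121 in DMSO) and A2451 (0.165) just before it, both chosen after their values were seen. A2591 had 1.698, 1.559 and 1.473. The order of the libraries differed among these 3 adenosines.

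Below them came C2749 (1.267 in DMSO, 1.238 in cycloheximide, 1.025 in RiboBright), A2798 (1.258, 1.221, 0.951) and C2669 (1.250, 1.191, 1.313). C2749 follows a run of 4 adenosines, A2743 to A2746, whose DMSO signals of 0.083, 0.068, 0.099 and 0.079 all lay under the median adenosine. The run was chosen after its values were seen. The cytidine 3 nt after the run was thus far above all 4 of its adenosines.

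A2513 had 1.214 with DMSO, 1.049 with cycloheximide and 1.604 with RiboBright. C2563 (1.189, 1.223, 1.355), C2488 (1.166, 1.182, 1.166), A2755 (1.063, 1.050, 1.111) and C2583 (0.999, 0.989, 1.299) complete the 12 most reactive members in DMSO. Of the 12, 7 were adenosines. The pattern was held in common by the libraries: of the 20 members with the highest DMSO signal, 19 were among the 20 highest in cycloheximide and 18 among the 20 highest in RiboBright.

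**Figure D1:**
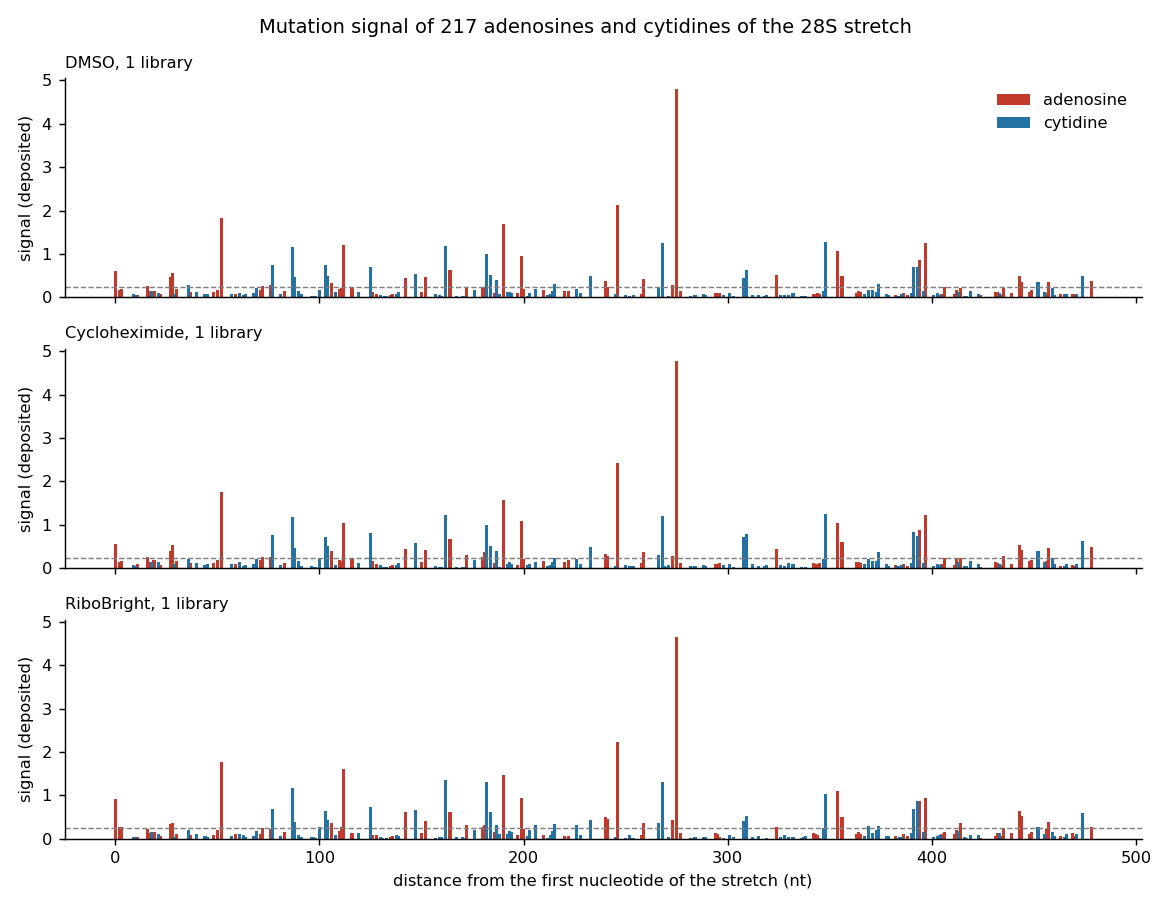
Deposited mutation signal (vertical axis) of the 91 adenosines (red) and 126 cytidines (blue) against their distance in nt from A2401, 1 panel for each library. The dashed line is the level floor of 0.240. The tallest bar in each panel, 275 nt from the start, is A2676 at 4.806, 4.781 and 4.654, and the same few positions stand out in each library.

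The longest runs of members under the floor lay after nucleotide 2640. Under the floor does not mean protected: the DMSO median of non-zero values over all A and C was 0.104. Between A2807 and A2844, the latter named after its value was seen, 15 members followed each other without one at the floor, with a median DMSO signal of 0.102 and a highest of 0.227. Between A2676 and C2709 there were 12, with a median of 0.0695, and between A2725 and C2749 another 12, with a median of 0.066. The window from 2681 to 2720 had the lowest median of the 12 windows of 40 nt, at 0.064 with DMSO, 0.073 with cycloheximide and 0.042 with RiboBright over 17 A and C. The next lowest, 2721 to 2760, had 0.081, 0.0985 and 0.095 over 16. The windows from 2481 to 2520 (0.181, 0.173, 0.166, over 19) and from 2561 to 2600 (0.165, 0.178, 0.197, over 21) had the highest medians in DMSO.

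Levels differed with the following or the preceding base in some contrasts, which were picked from all neighbours on both sides. Adenosines followed by G had a median DMSO signal of 0.217 (38 members, 17 at the floor), and adenosines followed by A had 0.1085 (26 members, 5 at the floor). In the rest of 28S rRNA these medians were 0.158 and 0.1065. Cytidines followed by G had 0.108 (49 members) and cytidines followed by C had 0.0605 (44 members), against 0.122 and 0.049 in the rest. Cytidines followed by A had 0.107 (16 members), close to those followed by G. By the base before, adenosines had 0.178 after G, 0.1755 after A, 0.1245 after C (16 members) and 0.094 after T (7 members). In the rest of 28S rRNA these were 0.127, 0.131, 0.142 and 0.124. Cytidines had 0.121 after A (9 members), 0.115 after T (33 members), 0.076 after G and 0.0615 after C. In the rest these were 0.0905, 0.099, 0.1025 and 0.046. These are medians over members of 1 library, and neighbouring members share sequence and reads.

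GNRA tetraloops are 4-base hairpin loops that start with G and end with A, with A or G in the third place. The letters hold 5 of them closed by at least 3 Watson-Crick or G-T pairs, and the pairs are those the letters allow, not known helices. The 2 whose loops are also in the predicted structure described further on are shown whole.
2554 to 2573: tgggcgccgCgAggcgtccA
2575 to 2586: tgcggtaaCgCg

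The hairpin from 2554 to 2573 had a loop more reactive than its stem. Within its GCGA loop, C2563 had 1.189 with DMSO, 1.223 with cycloheximide and 1.355 with RiboBright, and A2565 had 0.640, 0.666 and 0.610. The 7 A and C of its 8 pairs had DMSO signals from 0.022 to 0.243 with a median of 0.040, and the highest was A2573, the outer end of the stem, named after its value was seen. Loop and stem did not overlap in DMSO.

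The hairpin from 2575 to 2586 did not show this contrast. Its GTAA loop had A2581 at 0.208 with DMSO, 0.266 with cycloheximide and 0.275 with RiboBright, and A2582 at 0.238, 0.363 and 0.327. C2583, the base after the loop that the letters would pair with the G before it, had 0.999, 0.989 and 1.299, above both loop adenosines in every library. C2585, chosen after its value was seen, had 0.525, 0.519 and 0.625. Loop and stem overlapped here in every library.

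The other 3 tetraloops had lower or middling signals. A2611, the last base of GGGA, had 0.177 with DMSO, 0.168 with cycloheximide and 0.090 with RiboBright. A2641, the last base of GTGA, had 0.374, 0.328 and 0.503. In the second GTAA, A2764 had 0.094, 0.138 and 0.113, and A2765 had 0.151, 0.133 and 0.163, all under the level floor.

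A secondary structure was predicted from the 480 letters alone with RNAfold, without the signals. It pairs 66.2% of the nucleotides at -216.9 kcal/mol, and 78.3% of nucleotides had the same state when 100 nt on each side were folded too. Cytidines followed the prediction. The 23 predicted unpaired had a median DMSO signal of 0.138 and 9 of them reached the floor (39.1%), and the 103 predicted paired had a median of 0.080, with 14 at the floor (13.6%). With the flanks folded too, this order turned, to 0.0695 over 22 unpaired and 0.085 over 104 paired cytidines. Adenosines did not follow it: 59 predicted unpaired had a median of 0.141 and 32 predicted paired had 0.201. Over both bases the unpaired median was 1.38 times the paired one. Adenosines made up 59 of the 82 unpaired but 32 of the 135 paired members, so this ratio does not separate pairing from base. With the flanks folded too, it was 1.25 over both bases, although it was 0.730 for adenosines and 0.818 for cytidines. Of the 12 most reactive members, 6 were predicted unpaired and 6 paired, among the latter A2647, A2453 and C2749. The prediction leaves out proteins and contacts with other parts of the ribosome.

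**Figure D2:**
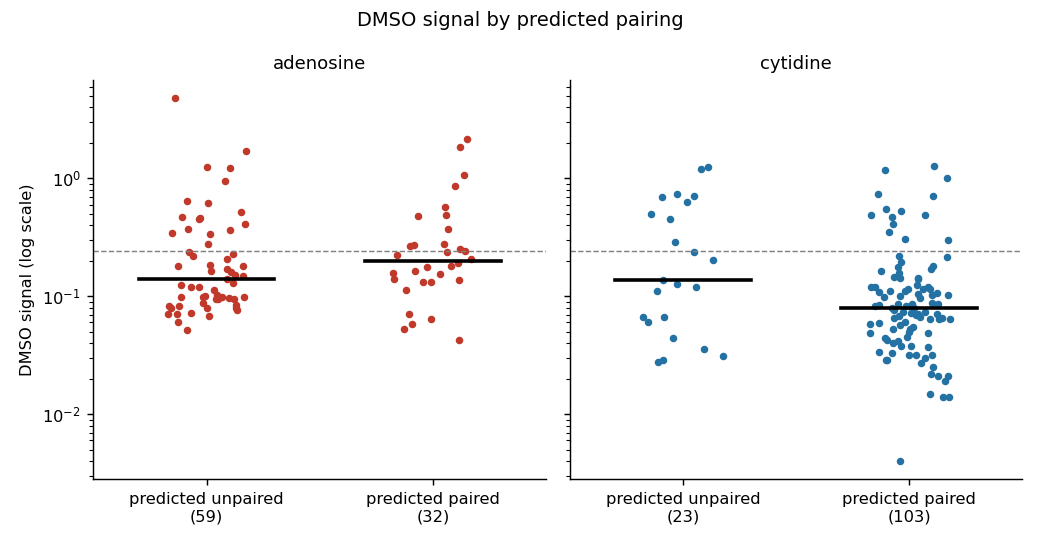
DMSO signal (log scale) of adenosines (left) and cytidines (right) that the predicted structure leaves unpaired or pairs, with the number of members under each group. Points are members, black bars are medians and the dashed line is the level floor; the medians are 0.141 and 0.201 for adenosines and 0.138 and 0.080 for cytidines.

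Of the naturally modified nucleotides of 28S rRNA, 7 A and C in this range are known to carry a methyl group on the ribose, which leaves the base-pairing face free. The table has the matching letter at all 7. A2401, the first nucleotide of the stretch, had 0.617 with DMSO, 0.559 with cycloheximide and 0.910 with RiboBright. A2815 had 0.225, 0.233 and 0.355, and C2422 had 0.112, 0.142 and 0.117. The other 4 were weakly reactive in every library: A2787 had 0.095, 0.104 and 0.111, C2804 had 0.104, 0.084 and 0.063, C2824 had 0.080, 0.085 and 0.081, and C2861 had 0.055, 0.093 and 0.065.

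To compare libraries, treated values were multiplied by a factor that brings the 28S-wide median of non-zero values to that of DMSO, 0.945 for cycloheximide and 0.912 for RiboBright. This moved values by -0.08 and -0.13 on the log2 scale. Changes are given relative to this. The log2 ratios use scaled signal plus a pseudocount of 0.0104, which understates changes at low levels. A member past the floor has a scaled signal of 0.240 or more in at least 1 of both libraries, and it was called if the libraries also differed 2-fold or more. This is a rule of size, not a test. A member can pass the floor through its higher library alone, which favours large ratios among members near the floor.

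Under cycloheximide the stretch kept its DMSO pattern. None of the 58 members past the floor was called, where 4.59% of positions past the floor were called over all of 28S rRNA. In the rest of 28S rRNA more than 25 nt from a missing value, as all members are, 2 of 332 were called (0.602%), so a count of 0 is close to that background. This part is called the well-covered rest, by its distance from missing values and not by depth, which is unknown. Beyond 1.5-fold there were also 0 of 58, against 11.1% over all of 28S rRNA and 9 of 332 (2.71%) in the well-covered rest. Without a floor, 2 of 217 members reached 2-fold (0.922%), against 8.91% of all positions compared and 45 of 1425 (3.16%) in the well-covered rest. These were C2589, from 0.086 in DMSO to 0.029, and C2670, from 0.014 to 0.047, both far under the floor and picked out after their values were seen.

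The log2 ratio to DMSO had a median of -0.03 and quartiles of -0.20 and 0.19 over the members, beside -0.01 over all of 28S rRNA. Past the floor it ran from -0.54 to 0.54. Its robust SD there, from the median absolute deviation, was 0.212, beside 0.175 in the well-covered rest.

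The largest scaled rise under cycloheximide was at C2709, and its neighbour C2710 had the third largest. C2709 had 0.455 with DMSO, 0.706 with cycloheximide and 0.399 with RiboBright, a log2 ratio of 0.54 under cycloheximide. C2710 had 0.629, 0.781 and 0.536, a ratio of 0.23. At both, cycloheximide was the highest library and RiboBright the lowest. A2647 (0.11), A2582 (0.51) and C2875 (0.27, from 0.487 to 0.622) had the other large rises, with log2 ratios in brackets.

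The largest scaled falls were small fractions of strong signals. A2676 had a difference of -0.286 and a log2 ratio of -0.09, A2591 -0.224 and -0.20, A2513 -0.222 and -0.29, A2453 -0.160 and -0.13, and C2669 -0.124 and -0.15. The ratios nearest to the 2-fold limit were those at C2709, at A2582 and at C2437. C2437 had 0.287 with DMSO, 0.206 with cycloheximide and 0.206 with RiboBright (-0.54 under cycloheximide). A2582, with 0.238 in DMSO, passed the floor through cycloheximide alone, so a ratio above 0 came with the rule.

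The sign of the small cycloheximide ratios changed along the stretch, a pattern seen in the values and not sought beforehand. All 6 windows of 40 nt from A2401 to 2640 had a median log2 ratio below 0, from -0.23 to -0.05. All 6 from 2641 to 2880 had one above 0, from 0.01 to 0.16. The windows were computed with this scaling only, and their signs depend on it. In 2441 to 2480 the median member was A2449, with deposited signals of 0.121 in DMSO and 0.123 in cycloheximide. Without scaling that window did not lie below 0. Up to nucleotide 2640, 33 of 106 members lay above 0 (median -0.10), and after it 67 of 111 (median 0.09). Without scaling the medians of these sides were -0.04 and 0.16, and the medians of both sides kept these signs under the 5 other scalings tried. Past the floor the medians were -0.11 over 31 members and 0.06 over 27. Members on one side share neighbours and 1 pair of libraries, so they are not replicates.

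Within that pattern, the window from A2401 to 2440 was the lowest under cycloheximide (-0.23, 4 of 18 above 0) among all windows. The next lowest was 2481 to 2520, at -0.11 (4 of 19 above 0). The highest was 2681 to 2720, at 0.16 (10 of 17 above 0), followed by 2721 to 2760 (9 of 16) and 2841 to 2880 (14 of 18), both at 0.11. The 5 members past the floor in the first of these windows all had ratios below 0, from -0.54 to -0.18. The members at both ends of this range, C2437 and A2417, passed the floor through DMSO alone. Their scaled cycloheximide signals were 0.195 and 0.236, so a ratio below 0 came with the rule there. A2417 was named after its value was seen.

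**Figure D3:**
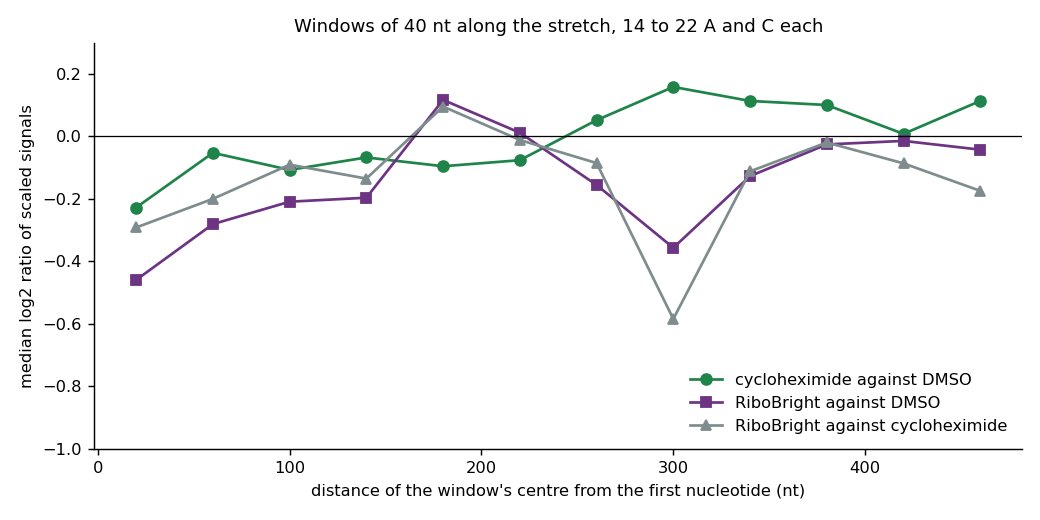
Median log2 ratio of scaled signals (vertical axis) in 12 windows of 40 nt, against the distance of the window's centre from A2401, for the 3 comparisons. Cycloheximide against DMSO (circles) lies below 0 in the first 6 windows and above 0 in the last 6; RiboBright is lowest against DMSO (squares) in the first window, at -0.46, and against cycloheximide (triangles) in the window from 2681 to 2720, at -0.58.

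Under RiboBright most 2-fold differences from DMSO were at weak members, while the largest differences in scaled signal were at strong ones. This is not particular to the stretch, as ratios scattered more at low levels elsewhere too. In the well-covered rest their robust SD was 0.697 under the DMSO median and 0.329 past the floor. Of 63 members past the floor 1 was called (1.59%), where 5.22% were called over all of 28S rRNA and 13 of 361 (3.60%) in the well-covered rest. Beyond 1.5-fold there were 5 of 63 (7.94%), 1 higher and 4 lower, against 18.1% over all of 28S rRNA and 14.7% in the well-covered rest. Over all of 28S rRNA 46 were higher and 44 lower, and in the well-covered rest 30 and 23. Without a floor, 21 of 217 members reached 2-fold (9.68%), 20 of them lower, against 15.5% of all positions and 14.0% in the well-covered rest. Lower ones also prevailed outside the stretch, with 203 of 285 over all positions and 138 of 200 in the well-covered rest. Apart from the called member, the 21 members of the stretch had scaled signals of at most 0.209 in either library.

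The called member was A2725. Its signal was 0.517 with DMSO, 0.441 with cycloheximide and 0.275 with RiboBright, so that RiboBright was lowest and cycloheximide lay between. The log2 ratio of RiboBright to DMSO was -1.01, just past the limit of 2-fold, and it was not called under any of 5 other scalings, where it lay between -0.99 and -0.89, or with the pseudocount doubled (-0.99). Nearby C2720 had 0.065, 0.078 and 0.019, and C2719 was at 0 in RiboBright. Closer to A2725, C2727 had 0.058, 0.082 and 0.049, and C2729 had 0.053, 0.058 and 0.096, its highest in RiboBright. All of these cytidines lay far under the floor and were chosen after their values were seen. A2807 (-0.83, from 0.250 to 0.149), A2429 (-0.79, from 0.567 to 0.354) and A2642 (0.77, from 0.238 to 0.452) came next and were not called. A2807 passed the floor through DMSO alone and A2642 through RiboBright alone, so the signs of these ratios came with the rule.

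Other large differences under RiboBright were at strong members. A2676 had a scaled difference of -0.560 from DMSO and a log2 ratio of -0.18, A2798 -0.390 and -0.53, A2591 -0.354 and -0.34, and C2749 -0.332 and -0.43. The largest rises were at A2513 (0.249, log2 ratio 0.27), A2401 (0.213, 0.42), C2583 (0.186, 0.24), A2642 (0.174, 0.77) and A2845 (0.121, 0.40, from 0.363 to 0.530). A2401, A2513 and C2583 had RiboBright as their highest library and cycloheximide as their lowest.

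Over all members the log2 ratio of RiboBright to DMSO had a median of -0.17 and quartiles of -0.55 and 0.19, beside a median of -0.08 over all of 28S rRNA. The median was -0.12 for adenosines and -0.20 for cytidines. It was -0.07 past the floor and -0.045 over all members without scaling. The robust SD past the floor was 0.428, beside 0.329 in the well-covered rest, and for cycloheximide 0.212 beside 0.175.

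By window, RiboBright was lowest against DMSO from A2401 to 2440, where the median log2 ratio was -0.46 and 3 of 18 members lay above 0. Past the floor there, 5 members ran from -0.79 at A2429 to 0.42 at A2401. The next lowest was 2681 to 2720, at -0.36 (4 of 17 above 0), the window with the lowest DMSO median. The highest was 2561 to 2600, at 0.12 (13 of 21 above 0), and then 2601 to 2640, at 0.01. Both comparisons with DMSO share that library, so their low value from A2401 to 2440 is not 2 separate observations.

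**Figure D4:**
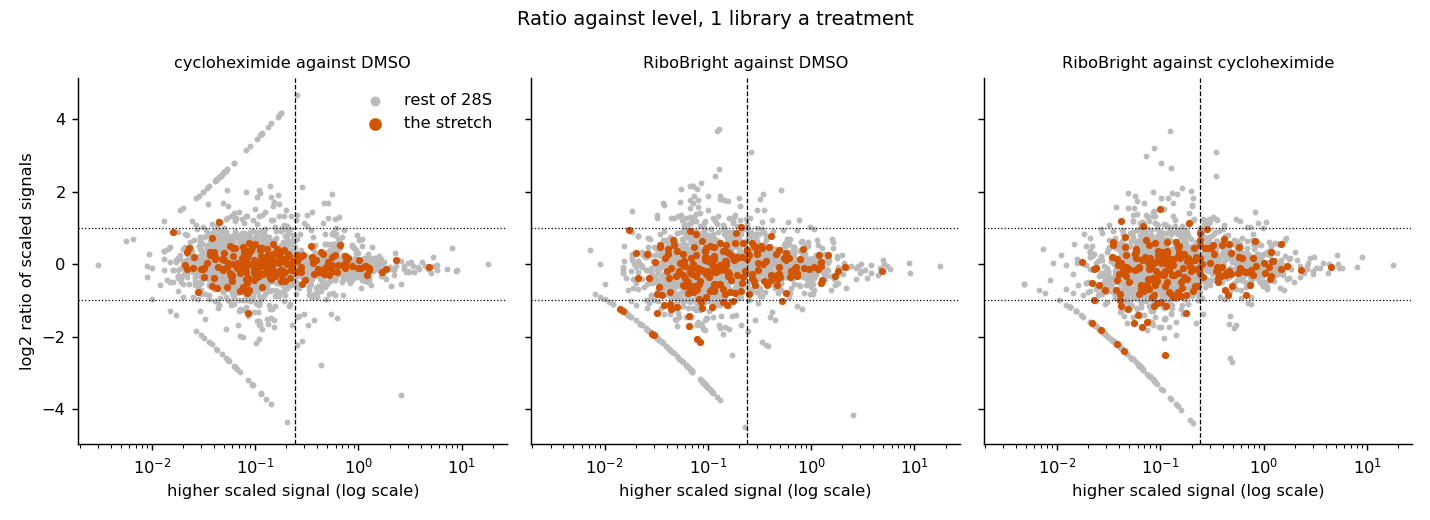
Log2 ratio of scaled signals against the higher of both scaled signals (log scale) for the members (orange) and the rest of 28S rRNA (grey), 1 panel for each comparison. Dotted lines mark 2-fold, the dashed line the floor of 0.240; right of it no member reaches 2-fold under cycloheximide and 1 does under RiboBright, while positions at 0 in 1 library form the slanted lines.

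RiboBright and cycloheximide were given at the same concentration and time and can be set against each other. None of 60 members past the floor was called, where 5.76% were over all of 28S rRNA and 16 of 354 (4.52%) in the well-covered rest. Beyond 1.5-fold there were 7 of 60 (11.7%), 3 higher and 4 lower in RiboBright, against 18.1% over all of 28S rRNA and 15.5% in the well-covered rest. Over all of 28S rRNA 57 were higher and 31 lower, and in the well-covered rest 38 and 17. Without a floor 21 of 217 reached 2-fold (9.68%), 17 of them lower in RiboBright, against 15.0% of all positions and 186 of 1425 (13.1%) in the well-covered rest. Lower in RiboBright were 196 of 275 over all positions and 136 of 186 in the well-covered rest. The median log2 ratio was -0.12, beside -0.08 over all of 28S rRNA.

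Nearest to the limit were C2607 and C2709. C2607 had 0.194 with DMSO, 0.146 with cycloheximide and 0.307 with RiboBright, a log2 ratio of 0.97 that passed 2-fold without scaling (1.02). It passed the floor through RiboBright alone, with a scaled signal of 0.280 against 0.138 in cycloheximide. C2709 was lower in RiboBright by a ratio of -0.86, and A2879 (0.370, 0.475 and 0.268) by -0.85. C2710 had -0.58, A2798 -0.41, A2647 -0.17 and A2676 -0.09, all among the 5 largest scaled falls together with C2709. The largest scaled rises were at A2513 (0.472), A2401 (0.302), C2583 (0.250), A2543 (0.165) and A2642 (0.160). A2543 had 0.455 with DMSO, 0.429 with cycloheximide and 0.625 with RiboBright.

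The window from 2681 to 2720 was the lowest of this comparison, where the median log2 ratio was -0.58 and 5 of 17 members lay above 0, followed by A2401 to 2440 at -0.29. The highest were 2561 to 2600, at 0.10, and 2601 to 2640, at -0.01. In 2681 to 2720 cycloheximide was above DMSO and RiboBright below it, with C2709 and C2710 as its members past the floor.

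Across the 217 members, which share libraries and neighbours and are not replicates, the Pearson correlation of log2 signals was 0.975 between cycloheximide and DMSO. With RiboBright it was 0.933 against DMSO and 0.921 against cycloheximide. Over the 1621 positions of the rest with a value in every library these were 0.950, 0.875 and 0.874. That rest includes positions near missing values, so these values do not show closer agreement in the stretch. The robust SD past the floor, beside the well-covered rest, was larger here in both comparisons with DMSO (0.212 beside 0.175, 0.428 beside 0.329). For RiboBright against cycloheximide it was 0.346 beside 0.360.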

How the data were processed

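The deposited signal is 1 value per A or C of 28S rRNA from dimethyl sulfate mutational profiling with TGIRT-III reverse transcription, per the labels' protocols; the authors' scaling and mutation counter were not given in the sources used here. Bowtie2, cutadapt and hg38 stand in the submitters' processing notes, with neither version nor step. The table of the whole series and the files of each library held identical values, and 0 columns were left out. Background without dimethyl sulfate was not analysed here.

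Members were taken by number and base. Scaling, the pseudocount (10% of the DMSO median of values above 0) and the floor (75th percentile of DMSO) were set on all A and C. The call rule was run on simulated data, with planted changes larger than 2-fold at positions well above the floor and less scatter than seen here. That run cannot tell how the rule does near its limits. Named positions are the 12 highest in DMSO, called members, the 5 largest rises and falls and up to 3 members just outside the rule in each comparison, ribose-methylated A and C, tetraloop A, and the 2 highest and 2 lowest windows. Any other position is marked as chosen after its value was seen. Members, lists and rules were chosen with earlier results of these data known. Structures came from RNAfold of ViennaRNA 2.7.2, and the rest was computed with Python 3.11.15 and pandas 2.3.3. Alternatives covered scaling, pseudocount, floor, size of change, zeros, summary statistic and fold settings.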

Additional observations from a re-analysis of the deposited data

How the results depend on the processing

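With 1 library per treatment, a count was taken as kept within 1.5 times, a log2 median within 0.1 and a level within 10%. The count of 0 called members for cycloheximide against DMSO held in all 13 alternatives. Some of these could not raise it. The 3-fold limit and the floor at the 90th percentile can only lower a count. The distance from missing values removes no member, and no member was at 0 in either library. For RiboBright against DMSO, 1 member became 0 without scaling, with the 90th percentile, with A and C scaled separately, with scaling over members or over positions above 0 in all 3 libraries (added after the data were seen), with the pseudocount doubled, with the floor at the 90th percentile and at 3-fold. It became 6 with the floor at the DMSO median and 5 at 1.5-fold. For RiboBright against cycloheximide, 0 became 1 (C2607) without scaling, with A and C scaled separately and with scaling over members, 5 with the floor at the DMSO median and 7 at 1.5-fold. The median log2 ratio of RiboBright to DMSO moved from -0.17 to -0.045 without scaling. Means in place of medians gave 0.351 for adenosines and 0.187 for cytidines in DMSO. The unpaired over paired ratio of 1.38, over groups that differ in their share of adenosines, moved to 1.68 by pairing probability. It was 0.701 for adenosines, 1.73 for cytidines, 1.60 in cycloheximide and 1.93 in RiboBright. The causes were not tested. Depth is unknown, so low signals carry no known precision.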
